A study of Brassica napus with 6 samples.

Results

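Oilseed rape (Brassica napus) plants of the hybrid HZ62 were sampled in 3 tissues. Of 80932 genes with a normalized expression value, 277 reached 5 in both flower bud libraries and gave no read in the other tissues. They are called genes read only in flower bud here. They were chosen from the deposited values of all 6 libraries: a gene had a value of 5 or more in each flower bud library and exactly 0 in all silique and seedling libraries. Their levels and their zeros are therefore given as a description, with no test. The values are read numbers per library, scaled by the authors with TMM (trimmed mean of M values) factors.

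RNA was sequenced from flower buds shorter than 2 mm, from siliques of 3 to 5 cm and from seedlings of 2 weeks, with 2 libraries per tissue. All plants were HZ62, labelled wild type, and grew in days of 16 h at 22 °C and nights of 8 h at 18 °C. The tissue field of the bud samples reads "flower bug", which was taken as flower bud because the titles and the extraction protocol say flower and flower bud. The labels do not tell whether the 2 libraries of a tissue are from different plants, so differences between them may be technical.

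A flower bud holds sepals, petals, stamens and carpels while they form. In the anther, pollen mother cells go through meiosis, and the tapetum, a layer of nurse cells around them, feeds the developing pollen and is broken down later. The silique is the pod that grows from the carpels after fertilization and holds the seeds, and a seedling has no floral organ. Oilseed rape carries an A and a C subgenome, so that many genes exist in related copies. No file pairs the gene identifiers with names, and of 95143 identifiers 0 were found in a RefSeq gene table of the Da-Ae assembly. Gene functions, and markers that would check the tissue labels, are for this reason not given. In whole buds, fewer cells that express a gene and less RNA of it per cell cannot be told apart.

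Flower bud libraries held 12614212 and 12543622 reads, silique libraries 12506762 and 10359099, and seedling libraries 24110359 and 3973408. Reads mostly came in even numbers. Of genes with 1 to 20 reads in a library, between 81.0% and 89.7% had an even count, and counting both ends of each sequenced fragment would give even numbers. No source used here gives the counting settings. If both ends were counted, a gene with 2 reads rests on 1 fragment. Limits for a count of 0 are accordingly given here as 3 read pairs, or 6 reads, and cover counting error only.

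The depth outside the bud sets how firm a zero is. A gene with a value of 5 would have 132.8 reads in seedling replicate 1, 18.3 in seedling replicate 2, 61.6 in silique replicate 1 and 50.8 in silique replicate 2. Over both libraries of a tissue, 0 reads allow a value of up to 0.199 in seedling and 0.267 in silique. The bud means of the 277 genes were 25.8-fold to 2999-fold the seedling limit, with a median of 70.03-fold. Against the silique limit they were 19.2-fold to 2231-fold, with a median of 52.1-fold. The low ends of these ranges are set by the rule, through its minimum of 5 and its zeros. Each limit holds for a single gene, not for 277 genes chosen for their zeros. The seedling bound rests on replicate 1: with replicate 2 alone its median is 8.49-fold and its lowest value 3.12-fold. Silique replicate 1 alone gives a median of 28.6-fold, and silique replicate 2 alone 23.5-fold.

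Most of the 277 genes were modest in value and a few were very high. The values ran from 5.06 through a median of 13.3 up to 568.7 in flower bud replicate 1, and from 5.09 through a median of 15.3 up to 622.2 in replicate 2. By the mean of both libraries, 83 genes lay under 10, 145 between 10 and 50, and 49 at 50 or more, of which 26 reached 100. The median of the means was 13.9, against 17.6 over the 31040 genes with 5 or more in each flower bud library. The genes read only in flower bud were 0.892% of those 31040. Even so, 7 of them were among the 100 genes with the highest bud values and 25 among the 1000 highest.

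Together the 277 genes took 1.19% of all reads in flower bud replicate 1 (Wilson 95% interval over read pairs 1.177 to 1.194) and 1.31% in replicate 2 (1.304 to 1.322). The intervals cover counting error only, and no test between the 2 libraries is possible. The top 10 genes by mean value made up 34.3% of the summed value and 19 genes made up 50%. The set is thus many weakly read genes beside a small number that carry most of the reads.

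Of the 6 genes with the highest mean values, 4 have a position in the deposited count table, whose coordinates count from 1 on gene models with ZS11 identifiers. No source used here names the genome build. ZS11A03G013860 (chromosome A3, 6849041 to 6849858, minus strand) had 568.7 and 622.2 in the flower bud libraries and 0 in each silique and each seedling library. Its bud mean was 595.4 ± 37.8 (SD, n = 2). ZS11A10G027760 (chromosome A10, 20193938 to 20194817, plus strand) had 551.4 and 621.3 in flower bud, with 0 in the other 4 libraries. The 2 genes were close in bud value, and the difference of their means was smaller than the spread between the libraries.

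ZS11C09G042050, on chromosome C9, had 493.3 and 515.2 in flower bud and 0 in the other 4 libraries. ZS11A10G009740 (chromosome A10, 9644679 to 9645623, plus strand) had 469.98 and 487.0 in flower bud and 0 elsewhere. A10 thus held 2 of the 6 highest genes, far apart on the chromosome. ZS11A05G021730 (chromosome A5, 16089796 to 16092499, plus strand) had 392.8 and 449.8 in flower bud, and ZS11C05G039060 on chromosome C5 had 397.4 and 439.3, each with 0 in the other 4 libraries. These last 2 genes overlapped in their bud values. None of the 4 placed genes overlapped another gene model.

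Long genes collect more reads, so levels between genes were compared per kilobase (kb) of the gene's span, which includes introns because the table gives no exons. This was possible for the 200 genes with a position. The other 77 have none, since the count table stops inside C3. Bud values per kb of span of the 200 genes ran from 0.736 to 728, with a median of 8.02. The median was 5.66 for the 19816 other genes with at least 5 in flower bud and a span, unplaced sequences included. By the value itself the set had the lower median, as given above. Its spans were shorter, as given below, which raises a value per kb. ZS11A03G013860 and ZS11A10G027760 stayed highest on this scale, with 728 and 666 per kb. ZS11A09G019720 (chromosome A9, 12851513 to 12851872, minus strand) came next with 594 per kb, from a span of only 360 bp and bud values of 211.8 and 216.1. It ranked 17 by the value itself. ZS11A05G021730, with a span of 2704 bp, had 156 per kb.

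The values just inside and just outside the minimum lay close together. Just inside, ZS11C05G062080 had 5.06 and 5.57 in flower bud, or 63 and 70 reads. ZS11A03G002060 (chromosome A3, 977136 to 978326, minus strand) had 5.14 and 5.09, which was 64 reads in each library. ZS11A09G053060 and ZS11C09G060890 shared the same lowest value of 5.09 in replicate 2 and had 7.14 and 5.78 in replicate 1; the first of them overlaps 1 other gene model. Just outside, with 0 elsewhere as well, ZS11A03G016230 had 4.98 and 5.89, ZS11C02G058830 had 4.98 and 6.05, and ZS11A06G027160 had 5.30 and 4.93. Those genes differ from the ones counted only by where the minimum was set.

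**Figure D1:**
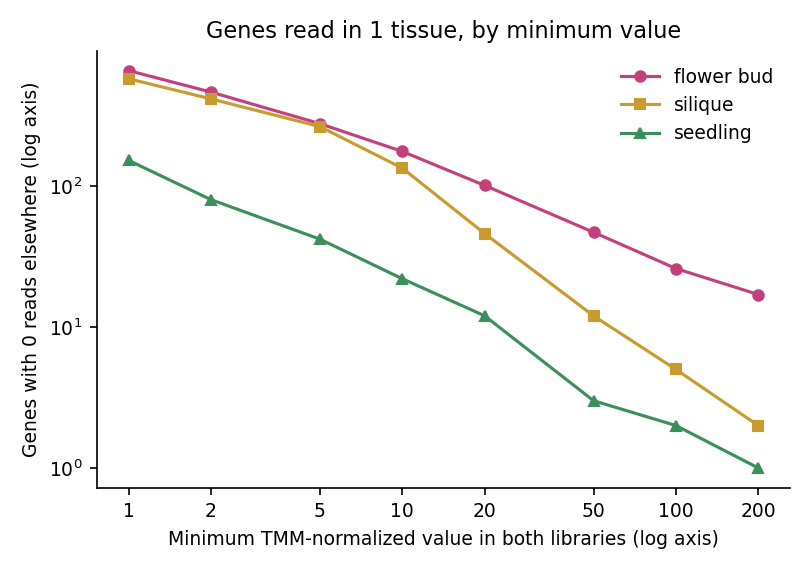
Number of genes (vertical log axis) with at least the minimum TMM-normalized value shown on the horizontal log axis in both libraries of a tissue and 0 reads in the other 4 libraries. At a minimum of 5 the bud and silique lists hold 277 and 264 genes, and at 50 they hold 47 and 12.

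The same rule applied to silique gave 264 genes, and to seedling 42 genes. Bud and silique lists were of similar length at a low minimum, with 659 and 577 genes at a minimum of 1, and came apart at higher values. At a minimum of 20 there were 101 genes for flower bud, 46 for silique and 12 for seedling. At 50 there were 47, 12 and 3, and at 200 there were 17, 2 and 1. The list of genes read only in flower bud therefore held more high values than the silique list. The seedling list rests on the shallowest library and is given only for completeness.

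The zero was also approached gradually. Of the 31040 genes with 5 or more in each flower bud library, 452 had no read in seedling and 389 had none in silique. Those lists shared the 277 genes, which were 61.3% of the first and 71.2% of the second. A further 93 genes had only 1 or 2 reads outside the bud, and 321 had between 1 and 20. Of these 321, 290 had an even total, as the plot of reads outside the bud shows. The 93 genes nearest to the rule had their reads in silique replicate 1 in 28 cases, in silique replicate 2 in 19, in seedling replicate 1 in 39 and in seedling replicate 2 in 7. Seedling replicate 1, the deepest library, held reads of the most of these 93 genes.

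**Figure D2:**
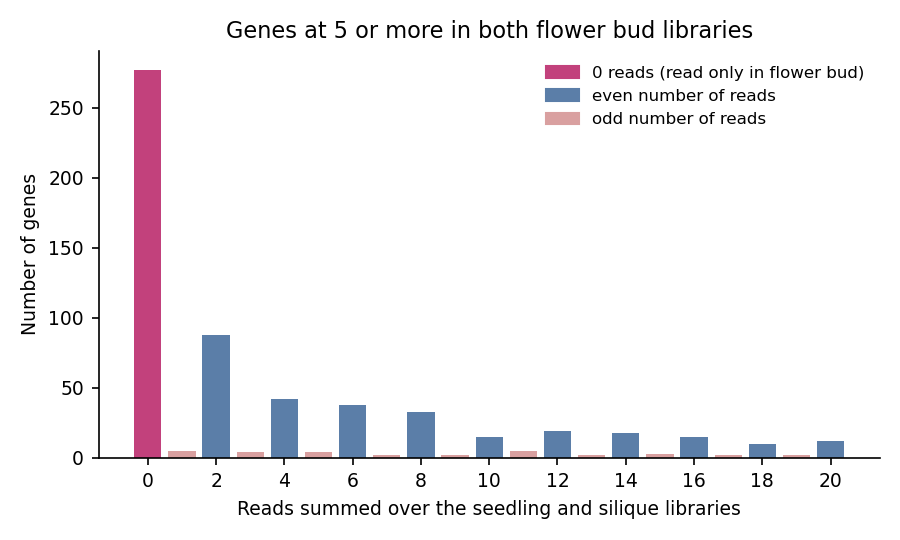
Number of genes (vertical axis) by reads summed over the 4 seedling and silique libraries (horizontal axis), for genes with 5 or more in each flower bud library. Bars stand at 277 genes for 0 reads, 5 for 1 read, 88 for 2 reads, 4 for 3 reads and 42 for 4 reads, and even totals tower over odd ones.

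The rule asks for a minimum in each bud library, which leaves out genes that are low in a single one of them. Within the set of 277, no gene differed 2-fold between the libraries. Across genes the Pearson correlation of log2 values was 0.989, against 0.984 over all 31040 genes with at least 5 in flower bud. The median size of the log2 difference, given below, was larger in the set. These correlations are across genes of the same 2 libraries and describe those libraries only. The widest gap was that of ZS11A02G022920 (chromosome A2, 13948899 to 13958318, plus strand), with 8.03 in replicate 1 and 14.3 in replicate 2, a ratio of 1.78. ZS11C04G053430 had 9.31 and 16.6, and ZS11C09G057870 had 11.1 and 19.1. In each of these 3 genes replicate 2 was the higher library.

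That direction was common in the set. Of the 277 genes, 195 (70.4%) were higher in replicate 2 and 82 in replicate 1, against 47.5% higher in replicate 2 among all 31040 genes with at least 5 in flower bud. The median ratio of replicate 2 to replicate 1 was 1.08 in the set and 0.992 over all of those genes. The gap was small per gene, and the median size of the log2 difference was 0.17 in the set and 0.13 over all. The share of genes higher in replicate 2 was largest among the genes with high values, although the size of the difference was not. Of the genes read only in flower bud with a mean of at least 50, 44 of 49 (89.8%) were higher in replicate 2, against 33.6% of the 4397 other genes at that level. Between 10 and 50 the count was 103 of 145, or 71.0%, against 49.3% of 18826 other genes. Under 10 it was 48 of 83, or 57.8%, against 50.5% of 7540. The median ratio in the set was 1.08 at 50 or more, 1.12 between 10 and 50, and 1.04 under 10.

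Genes that were read mostly but not only in flower bud leaned the same way. The share of a gene's value in flower bud was taken as its bud mean over the sum of its 3 tissue means. Of the 489 other genes with at least 90% in flower bud, 65.8% were higher in replicate 2, and the median ratio was 1.05. Of the 899 genes with 70% to 90% it was 54.4%, of the 4768 with 50% to 70% it was 50.8%, of the 18253 with 30% to 50% it was 47.3%, and of the 6354 with under 30% it was 42.4%. The share of genes higher in replicate 2 thus rose with the share of the value found in flower bud. With only 2 bud libraries this compares those libraries and was not tested.

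**Figure D3:**
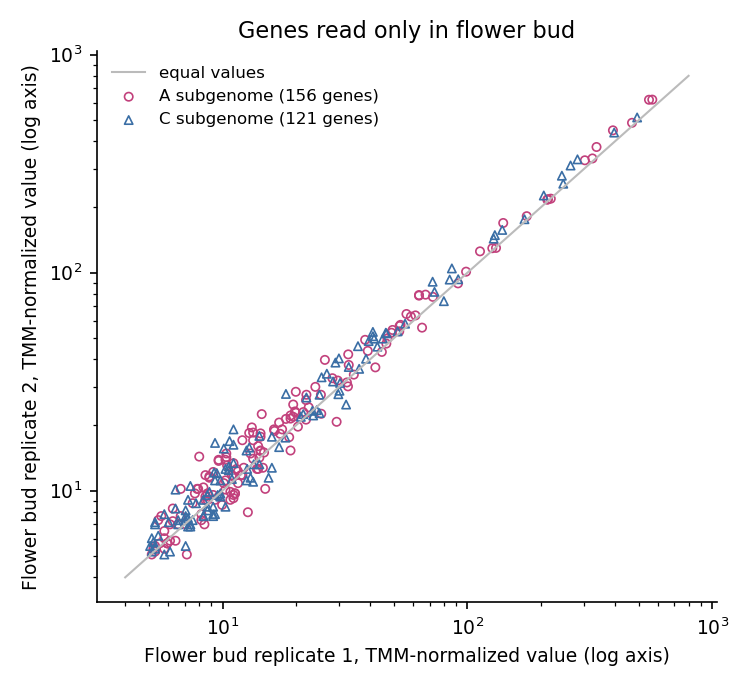
TMM-normalized value in flower bud replicate 2 (vertical log axis) against replicate 1 (horizontal log axis) for each of the 277 genes, circles for 156 A subgenome genes and triangles for 121 C subgenome genes. Points follow the line of equal values closely, and 44 of the 49 genes with a mean of at least 50 lie on the side of replicate 2.

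The 277 genes were spread over all 19 chromosomes, with 156 on A chromosomes and 121 on C chromosomes. A chromosomes held 56.3% of them but 47.2% of the genes with at least 5 in flower bud. Put the other way, 1.06% of such genes on A chromosomes and 0.740% of those on C chromosomes were read only in flower bud. Of the genes read only in silique, 56.1% lay on A chromosomes, a share close to that of the bud list. The median of the bud means was 14.8 on A and 13.4 on C. A genes made up 58.8% of the summed bud value.

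By chromosome the count ran from 7 genes on C8 to 24 on A9. Relative to the genes with at least 5 in flower bud, the share was lowest on C8 at 0.393% and highest on A10 at 1.60%, where 18 genes lay. A4 came next with 13 genes, or 1.34%. The 13 genes on A4 were modest in value, with 148.5 and 173.2 in sum, against 1341 and 1455 for the 18 genes on A10. C chromosomes other than C8 and C2 lay between 0.704% and 0.813%, and C2 reached 1.07%. With between 7 and 24 genes a chromosome, these shares rest on few genes and were not tested.

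**Figure D4:**
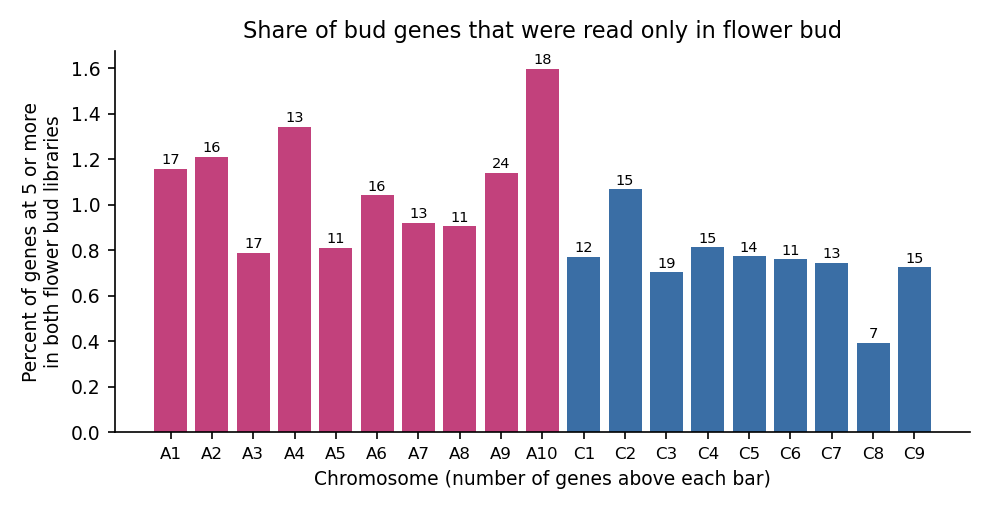
Genes read only in flower bud as a percentage of the genes with 5 or more in each flower bud library (vertical axis), for each of the 19 chromosomes, with the number of genes above each bar and A and C subgenomes in different colours. The bars run from 0.393% on C8 to 1.60% on A10.

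Genes read only in flower bud had short spans beside other genes active in the bud. The median span of the 200 genes with a position was 1890 bp (quartiles 1178.5 and 3029), against 3025 bp (2053 and 4720) for the 19785 other placed genes with at least 5 in flower bud. It was close to the median of 1977 bp over all 64918 gene models on the chromosomes of the table, most of which were not that active. Spans under 1000 bp were found in 33 of the 200 genes (16.5%), against 3.37% of the other bud genes and 23.5% of all models. Spans of at least 5000 bp were found in 23 genes (11.5%), against 22.7% of the other bud genes.

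The gap was found in each class of bud value. Under a mean of 10 the median span was 1766.5 bp in the set and 2606 bp in the other bud genes, between 10 and 50 it was 1956.5 and 3168 bp, and at 50 or more it was 1905 and 3452 bp. In that last class 12 of 38 genes (31.6%) were shorter than 1000 bp, against 3.64% of the others. The genes read only in silique were shorter still, with a median of 1171 bp and 47.2% under 1000 bp. The shortest of the 200 was ZS11A04G006560 (chromosome A4, 4840777 to 4841019, plus strand), which spans 243 bp and had 12.7 and 7.96 in the flower bud libraries. The longest was ZS11A10G022160, with 15570 bp. Both were named for their span after the values were seen.

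**Figure D5:**
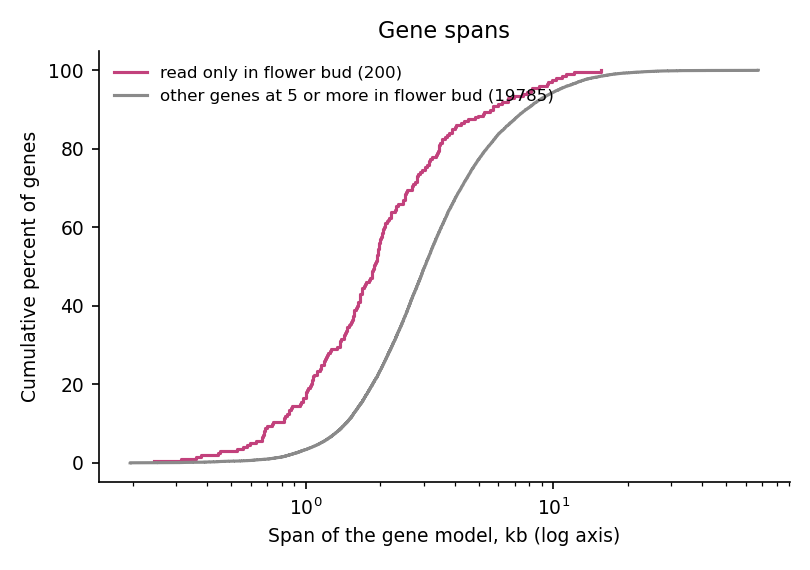
Cumulative percentage of genes (vertical axis) by span of the gene model in kb (horizontal log axis), for 200 genes read only in flower bud and 19785 other genes with 5 or more in each flower bud library. The first curve lies to the left, with medians of 1890 and 3025 bp.

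Their surroundings differed less. Of the 200 genes, 94 lay on the plus and 106 on the minus strand. A window of 1 Mb around each held a median of 157.5 gene models, against 159 for the other bud genes and 149 for all models. The median distance to the closest neighbouring model was 596 bp, against 428 bp and 647 bp. Overlap with another gene model was found in 30 of the 200 (15.0%), against 21.6% of the other bud genes. No source used here says whether counting used strand, so the values of these 30 genes are uncertain. How reads shared by near-identical copies were counted is not given either, and this bears on a genome with 2 subgenomes.

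Some of the genes lay side by side. In the order of gene models, 18 of the 200 placed genes (9.0%) were next to another gene of the set, always as pairs and never as longer runs. Over all 19 chromosomes, by identifier, this was 20 of 277 genes in 10 pairs. The genes read only in silique gave 8.29% by position. The share expected for 200 genes scattered over the 64918 placed gene models was not computed, here or for the distances that follow. Whether 9.0% is few or many was therefore not tested. Within 100 kb of another gene of the set lay 45 of the 200 genes (22.5%), against 28.5% in the silique list. Of the 9 pairs with positions, 8 lay on the same strand, at distances from 258 to 12388 bp. How often adjacent gene models at large share a strand was not computed.

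The 2 genes of a pair often differed in value. The higher mean was between 1.28 and 10.3 times the lower, with a median of 2.80. The means of all 277 genes were themselves spread, with quartiles of 9.07 and 34.8. Pairs were not compared with genes of the set that lie apart. The closest pair in value lay on A10, where ZS11A10G017350 (14808210 to 14809025, plus strand) had 13.96 and 16.0 and its neighbour ZS11A10G017360 (14810255 to 14811258, plus strand) had 10.4 and 13.1. Their spans were 816 and 1004 bp. The widest gap lay on A2, where ZS11A02G039320 (29407151 to 29414088, plus strand) had 301.6 and 327.8 and ZS11A02G039310 (29393751 to 29394762, plus strand) had 28.1 and 32.8. Per kb of span those A2 genes stood at 45.4 and 30.1, closer together than by value.

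Other pairs showed the same spread. On A10, ZS11A10G022160 (17547466 to 17563035, plus strand) had 58.7 and 62.9, and ZS11A10G022170, which starts at 17563457, had 10.4 and 14.8. On A1, ZS11A01G044740 (33322834 to 33324325, minus strand) had 21.9 and 21.2, and ZS11A01G044750 (33324584 to 33326897, minus strand) had 12.2 and 12.7. The A1 pair is the one 258 bp apart, and ZS11A01G044740 overlaps 1 other gene model. The pair on opposite strands also lay on A10, with ZS11A10G013290 at 11.2 and 9.71 and ZS11A10G013300 at 5.30 and 5.57. On C2, ZS11C02G034270 (28685158 to 28688645, plus strand) had 28.9 and 38.7, and ZS11C02G034260 had 5.46 and 6.21. The only pair without positions, ZS11C04G042780 and ZS11C04G042790, had 80.1 and 74.0 against 26.6 and 34.4. The remaining 3 pairs lay on A2, A4 and A5.

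The rule did not pick the genes beside the set for a high bud value, so these could be tested. The nearest gene model on each side that is not itself in the set gave 382 neighbours. Adjacent genes that met the rule were thus skipped, so the list of neighbours is not wholly free of the rule. Of these, 102 (26.7%) had no read in any library, against 28.1% of all 64918 placed models, and 122 (31.9%) had 5 or more in each flower bud library, against 30.8%. Both shares were close to those of gene models at large.

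Differences between tissues were tested on the deposited counts with edgeR, with calls made for differences of 2-fold or more whose adjusted p (Benjamini-Hochberg) lay under 0.05. A gene could pass the filter on low counts through its bud reads alone, among the neighbours as among all genes. The calls are thus not free of that filter. Of the 382 neighbours 208 passed it. Of these, 62 (29.8%) were higher in flower bud than in seedling, against 21.1% of the 34296 genes tested, and 42 (20.2%) were lower, against 21.8%. Compared with silique, 34 (16.3%) were higher in flower bud, against 13% of all genes, and 23 (11.1%) were lower, against 14.5%. Higher in flower bud than in both other tissues were 26 neighbours (12.5%), against 8.34% of all genes, and 18 (8.65%) were lower than in both, against 8.13%. Of the 382 neighbours, 29 overlap a gene of the set. With overlapping neighbours left out, 22 of 189 (11.6%) were higher in flower bud than in both other tissues. The median log2 fold change of flower bud over seedling was 0.34 in the neighbours and 0.12 over all genes, and that over silique was 0.11 and 0.01. The excess of bud-high neighbours over the background was small and no test of it was made. All 200 placed genes of the set passed the filter and were called higher in flower bud, which the rule fixes.

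Among the 26 neighbours higher in flower bud, several were themselves read only there but below the minimum. ZS11A08G023940 had 2.89 and 4.14 in flower bud and 0 in the other 4 libraries. ZS11A10G013140 had 4.98 and 3.98 in flower bud and 0 elsewhere. Such neighbours passed the filter on low counts through their bud reads alone. Their calls are therefore given as a description, without p-values. ZS11A09G019720, the short A9 gene described above, had a bud-high neighbour on each side. ZS11A09G019710 had 18.1 and 23.4 in flower bud, 2.76 and 2.17 in silique, and 0.0753 and 0 in seedling. ZS11A09G019730 had 13.3 and 16.7 in flower bud, 5.35 and 6.90 in silique, and 2.33 and 1.64 in seedling. The neighbour with the highest bud value was ZS11C02G021630, with 178.2 and 157.1 in flower bud, 1.62 and 2.17 in silique, and 4.82 and 0 in seedling. It was higher in flower bud than in both other tissues (edgeR adjusted p = 2.05e-05 against silique and 2.74e-05 against seedling). These neighbours were chosen for naming after their values were seen.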

How the data were processed

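Per the labels' protocols, polyadenylated RNA went into libraries of the TruSeq RNA kit. The submitters' processing notes name featureCounts, HISAT2, SAMtools, GATK and edgeR, without versions or roles. The deposited counts are whole read counts per gene, per the file headers, for 65535 genes on 13 of 19 chromosomes and on unplaced sequences. A second deposited table gives a normalized signal for 80932 genes, which the authors scaled with TMM factors, per its name. Each library's values were whole multiples of 1 step. Dividing by it gave whole reads for 100% of values (tolerance 0.05 reads), equal to the counts for 100% of the 51324 shared genes.

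The members, lists and comparisons were chosen with earlier results of these data known. Members were taken from the normalized table by the stated rule. Named genes are the 6 highest means, the 3 lowest values (4, with a tie) and 3 just outside the minimum, the longest runs (all pairs, a tie of 10), the 3 largest ratios between bud libraries, and those said to be chosen later. Neighbours were tested with edgeR 4.0.16 in R 4.3.3 (TMM, filterByExpr with a minimum count of 10, quasi-likelihood F test, 6 libraries, tissue only, 3 residual degrees of freedom) and checked on simulated data. Alternatives used DESeq2 1.42.0, limma 3.58.1 and the settings in the closing section. The p-values measure the spread between these libraries. Python 3.11.15, pandas 2.3.3, NumPy 2.4.6, SciPy 1.17.1 and matplotlib 3.10.9 were used. Marker lists were not run, as no identifier matched a name. The parents of the hybrid were not analysed here.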

Additional observations from a re-analysis of the deposited data

How the results depend on the processing

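The number of genes read only in flower bud moved with the minimum, to 659 at 1 and 176 at 10. It was 374 with up to 3 reads allowed elsewhere, 256 with TMM factors computed here, and between 284 and 357 with 1 library left out, highest without seedling replicate 1. The A share was 52.7% at a minimum of 1 and 59.1% at 10. Genes next to another gene of the set numbered 18 with 1 model allowed in between. Higher in bud replicate 2 were 206 genes (74.4%) when scaled to library totals and 193 (69.7%) with relative log expression factors, against 51.9% and 45.8% of all genes with at least 5 in flower bud. A limit of 3 reads, chosen after seeing the data, would double the median bounds to 140.05-fold over seedling and 104.2-fold over silique, by construction.

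Of the neighbours higher in flower bud than in both other tissues, DESeq2 called 17 of 208 (8.17%, against 6.17% of all genes), and 2 models on each side gave 46 of 409 (11.2%). Leaving out 1 library gave between 15 and 29, with 15 without flower bud replicate 1 (6.98%, against 4.85% of all genes), 15 without replicate 2 (6.94% against 4.69%) and 17 without silique replicate 2 (7.73% against 5.37%). Left with 1 library, a tissue is assumed to vary like the others. The neighbours' share was above that of all genes in 16 of 16 settings, by 1.13 to 1.61 times. These settings reuse the same libraries and mostly the same neighbours, so they are not independent of each other. With the replicate block 25 of 208 neighbours were called (12.0%, against 7.52% of all genes). With no filter on low counts 25 of 280 were called (8.93%, against 6.01% of all genes). Same-numbered libraries of different tissues correlated between -0.0266 and 0.00383, across genes, in their deviations from the tissue means. Whether they share a batch is not given in the labels and was not tested. The cause of these moves was not tested. Depth limits the zeros most in seedling replicate 2, where 3 read pairs are worth 1.64.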
